A study of Ovis aries with 23 samples.

Results

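Lipocalin 2 (LCN2) and transcobalamin 1 (TCN1) are secreted proteins that neutrophils store in their specific granules. Their mRNA was measured in injured sheep lung as the rows T006 and T008 of a custom nCounter panel, 2 of the 20 rows of the deposited table. Both were chosen by place: the 6th and the 8th row took the names of the 6th and the 8th gene of the probe list published with the assay. No table used here pairs a row with a gene, so each name below is a name by place. The 2 rows with the lowest counts, T007 and T011, lay at the places of ZDHHC19 and RBP7. The study, whose text writes ZDHHC18 for the former, left both genes out for counts below detection. After the markers the probe list held only housekeeping genes, so by place the 4 unnamed rows, T036 to T039, are housekeeping genes. They count among the 20 rows in every share given below.

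Lung tissue of 23 non-pregnant Merino-Dorset ewes was analysed, with RNA from 3 lobes of the right lung pooled into 1 sample per animal. By the methods, lobe samples needed a set RNA integrity number, and the supplement lists the upper lobes of C19 and SD4 below it. Whether the pools of these animals held 3 lobes is not known. Phenotype 1 (Ph1) was an acute respiratory distress syndrome induced with intravenous oleic acid in 14 animals. Phenotype 2 (Ph2) was induced in 9 animals with oleic acid followed by an intravenous infusion of lipopolysaccharide, a component of the bacterial outer membrane. Observation ended at 6 h in 5 Ph1 and 3 Ph2 animals, at 12 h in 4 and 3 animals and at 24 h in 5 and 3 animals, and each animal gave tissue at 1 time point only. The animals were control animals of a pair of preclinical trials, 12 of CELTIC (8 Ph1 and 4 Ph2) and 11 of STARDUST (6 Ph1 and 5 Ph2). All 23 were anaesthetised, mechanically ventilated and given oleic acid, and no uninjured sheep was measured, so every comparison lies between injured lungs. All animals at 24 h belonged to STARDUST, all Ph2 animals at 6 h and all Ph1 animals at 12 h to CELTIC. Only the Ph1 group at 6 h and the Ph2 group at 12 h held animals of both studies.

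LCN2 binds the siderophores with which bacteria take up iron, and TCN1, also called haptocorrin, binds vitamin B12. Granule proteins of neutrophils are made while the cells mature in the bone marrow, and secretory epithelium of the airways can make LCN2 and TCN1 as well. MMP8, the neutrophil collagenase, and OLFM4, a granule protein found in a subset of neutrophils, are the other specific granule genes considered here (rows T001 and T002). In whole lung tissue, fewer cells of a type and less mRNA per cell cannot be told apart. The panel held no epithelial marker, so the cells in which LCN2 and TCN1 were transcribed were not identified.

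The assay counts mRNA molecules without amplification through a pair of probes that lie side by side on the transcript. The probe sequences are shown because they define which part of each transcript was counted. The target of the LCN2 pair was the stretch from base 218 to base 317 of its transcript and that of the TCN1 pair the stretch from base 866 to base 965, each 100 bases long. Every one of the 22 B probes on the list opened with the same 25 bases, and the capitals mark the 50 gene-specific bases that followed them. Tag and gene part could not be separated in the A probes, which are given in lower case throughout, 5′ to 3′.
LCN2 Probe A: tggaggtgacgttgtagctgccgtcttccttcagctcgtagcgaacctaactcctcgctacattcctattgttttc
LCN2 Probe B: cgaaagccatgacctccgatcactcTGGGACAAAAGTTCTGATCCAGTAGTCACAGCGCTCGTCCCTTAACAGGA
TCN1 Probe A: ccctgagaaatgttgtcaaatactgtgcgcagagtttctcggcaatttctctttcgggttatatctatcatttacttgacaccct
TCN1 Probe B: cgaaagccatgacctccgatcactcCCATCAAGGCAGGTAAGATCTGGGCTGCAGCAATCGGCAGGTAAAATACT

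Values are log2 normalized counts, so that a difference between groups is a fold change on the log2 scale. The counts recovered from them summed to between 13871 and 34415 per animal over the 20 rows, and the median total was 20457 for Ph1 animals and 19320 for Ph2 animals. LCN2 lay between 1439 and 7793 counts (median 2871) and TCN1 between 982 and 5687 (median 2012), far from the counting limit. MMP8 lay between 11 and 160 counts (median 26) and OLFM4 between 4 and 1316 (median 53), so their low values carry more counting error. The rows at the places of ZDHHC19 and RBP7, left out by the study as below detection, lay between 3 and 16 and between 2 and 41 counts. Low MMP8 and OLFM4 values fell within these ranges and may not stand above background, which limits what their correlations below can show. CD177, used below in a list of granule rows, lay between 6 and 41 counts (median 22), all within the range of the RBP7 row. The same limit holds for its correlations and its direction in that list. Counting error is the only error these counts speak to, and the spread between animals is given beside each mean.

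LCN2 covered a 4.73-fold range over the 23 animals, and TCN1 a 5.83-fold range. LCN2 was lowest in animal C11 at 10.64 and highest in SD6 at 12.88, and both were Ph1 animals observed for 6 h. TCN1 was lowest in SD8 at 9.94, a Ph2 animal at 24 h, and highest in G33 at 12.49, a Ph2 animal at 6 h. The 6 groups of phenotype and time point accounted for 25.0% of the variation of LCN2 and 49.7% of that of TCN1, beside a median of 39.6% over the 20 rows. The larger part of the variation of LCN2, and by a narrow margin that of TCN1, thus lay between animals of the same group, as in the median row. With 6 groups and 23 animals some share arises without any difference between the groups, and the shares were not tested.

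**Figure D1:**
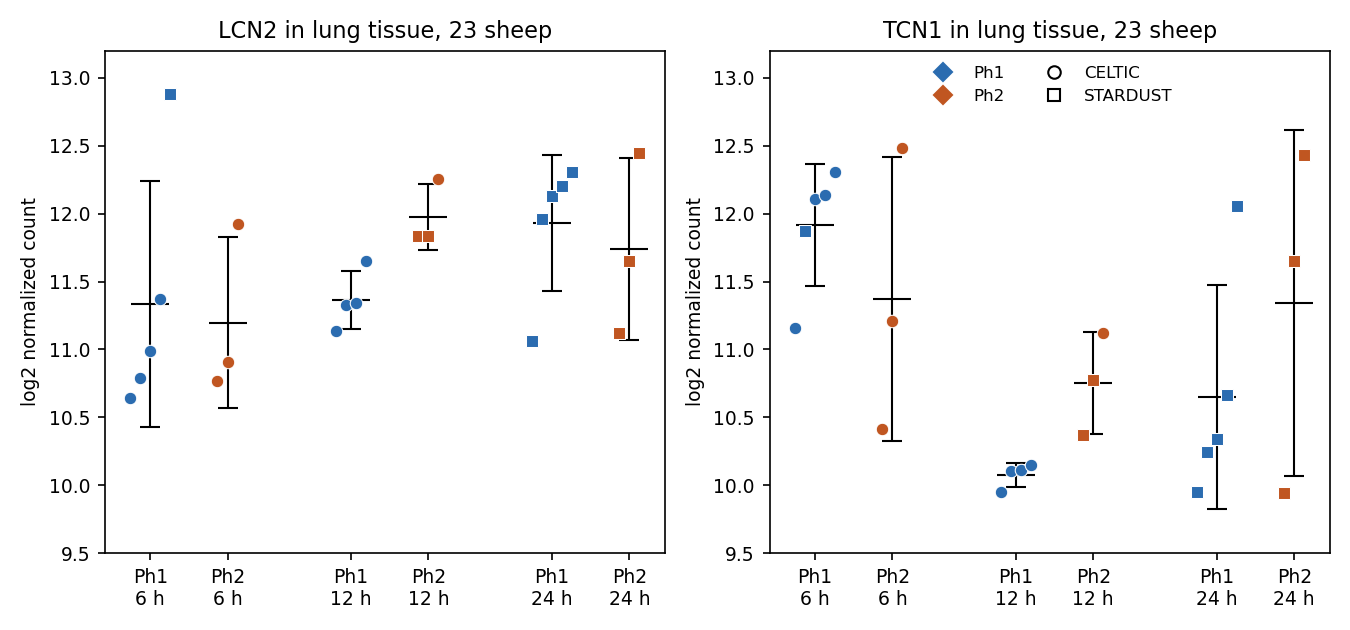
LCN2 (left) and TCN1 (right) as log2 normalized count in each of the 23 animals, by phenotype and observation time; circles are CELTIC and squares STARDUST animals, and bars give mean and SD. The TCN1 values of Ph1 ran from 11.16 to 12.31 at 6 h and from 9.95 to 10.15 at 12 h, and both genes were higher in every Ph2 than in every Ph1 animal at 12 h.

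No difference in LCN2 between the phenotypes was detectable over all time points. In Ph1 the lowest, median and highest log2 normalized counts of LCN2 were 10.64, 11.36 and 12.88, and in Ph2 they were 10.76, 11.83 and 12.45. The ranges lay almost on top of each other, and 6 of 9 Ph2 animals were above the Ph1 median. The means were 11.56 ± 0.65 (SD, n = 14) in Ph1 and 11.64 ± 0.59 (SD, n = 9) in Ph2, a difference of 0.08 (exact two-sided Mann-Whitney U test, p 0.829, adjusted p 0.829 over the 20 rows). The 95% interval of this difference from limma ran from -0.46 to 0.63 on the log2 scale, that is from 0.725-fold to 1.54-fold. Its sign was not settled: it was -0.046 with time point and study as blocks, -0.31 within STARDUST alone, -0.003 after centring each animal on the median of the markers and -0.02 without SD8.

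For TCN1 no difference between the phenotypes was detectable over all time points either. Its lowest, median and highest log2 normalized counts were 9.95, 10.50 and 12.31 in Ph1 and 9.94, 11.12 and 12.49 in Ph2. Again 6 of 9 Ph2 animals were above the Ph1 median and the ranges overlapped nearly in full. The means were 10.94 ± 0.95 (SD, n = 14) in Ph1 and 11.16 ± 0.90 (SD, n = 9) in Ph2, a difference of 0.22 (exact two-sided Mann-Whitney U test, p 0.439, adjusted p 0.516). The limma interval of the difference was -0.57 to 1.00, and without the animals at 24 h the difference was -0.04. At an unadjusted exact p below 0.05, 15.0% of the 20 rows differed between the phenotypes, and neither LCN2 nor TCN1 was among them. The Mann-Whitney p that the paper prints for TCN1 over all animals equals the exact p here when rounded. For LCN2 the paper prints a higher p than the exact Mann-Whitney p of 0.829 here, so its name by place lacks this match.

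At 6 h both means were lower in Ph2, by less than the spread of the animals, and that of LCN2 was 0.009 higher after scaling to the panel total. LCN2 in the 5 Ph1 animals had log2 normalized counts of 12.88 in SD6, 11.37 in C3, 10.99 in C2, 10.79 in C1 and 10.64 in C11, and in the 3 Ph2 animals of 11.92 in G33, 10.91 in C5 and 10.76 in C4. SD6, the only STARDUST animal at this time point, stood above all the others. The mean difference of LCN2 was -0.14 (exact Mann-Whitney p 1), and without SD6, C4 or C5 it was above 0, between 0.008 and 0.25. TCN1 was 12.31 in C3, 12.14 in C1, 12.11 in C11, 11.87 in SD6 and 11.16 in C2 of Ph1, and 12.49 in G33, 11.21 in C5 and 10.42 in C4 of Ph2. The Ph2 animals spanned the highest and the lowest value of the time point. Their mean was lower by 0.55 on the log2 scale (95% interval of limma -1.62 to 0.53, exact Mann-Whitney p 0.786), and 0% of the 20 rows reached an exact p below 0.05.

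At 12 h every Ph2 animal was above every Ph1 animal for both genes. LCN2 was 12.26 in G34, 11.84 in SD4 and 11.83 in SD13 of Ph2, and 11.65 in C18, 11.34 in C21, 11.33 in C17 and 11.14 in C19 of Ph1. TCN1 was 11.12 in G34, 10.77 in SD13 and 10.37 in SD4 of Ph2, against 10.15 in C18, 10.11 in C21, 10.10 in C19 and 9.95 in C17 of Ph1. The gap between the groups was narrow in both, and G34 had the highest value of both. LCN2 was 1.52-fold higher in Ph2, a log2 difference of 0.61 (95% interval of limma -0.33 to 1.55), and TCN1 1.60-fold, a log2 difference of 0.68 (-0.45 to 1.80). The exact Mann-Whitney p was 0.0571 for each, the smallest that 3 against 4 animals allow, and the adjusted p over the 20 rows and 3 time points was 0.536. Ranges did not overlap in 30.0% of the 20 rows at this time point, so the separation was not particular to LCN2 and TCN1, and 0% of the rows passed an exact p of 0.05. The 4 Ph1 animals were all of CELTIC and SD4 and SD13 of STARDUST. Only G34 was a Ph2 animal of CELTIC, so study and phenotype cannot be told apart at this time point.

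At 24 h the groups overlapped. LCN2 in Ph1 was 12.30 in SD10, 12.20 in SD7, 12.13 in SD14, 11.96 in SD2 and 11.06 in SD1, and in Ph2 it was 12.45 in SD8, 11.65 in SD11 and 11.12 in SD9. SD8 had the highest value of the time point and SD1 stood below the other 4 Ph1 animals. TCN1 in Ph1 was 12.05 in SD14, 10.66 in SD2, 10.34 in SD1, 10.25 in SD7 and 9.95 in SD10, and in Ph2 it was 12.43 in SD9, 11.65 in SD11 and 9.94 in SD8. SD8, the highest for LCN2 at this time point, was the lowest of all for TCN1, and SD9 was the reverse, second from the bottom for LCN2 and at the top for TCN1. The difference between the phenotypes was -0.19 for LCN2 (95% interval of limma -1.09 to 0.71, exact Mann-Whitney p 1; 0.12 without SD9 and 0.03 after centring on the median of the markers) and 0.69 for TCN1 (-0.39 to 1.77, exact p 0.786). Again 0% of the 20 rows reached an exact p below 0.05.

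**Figure D2:**
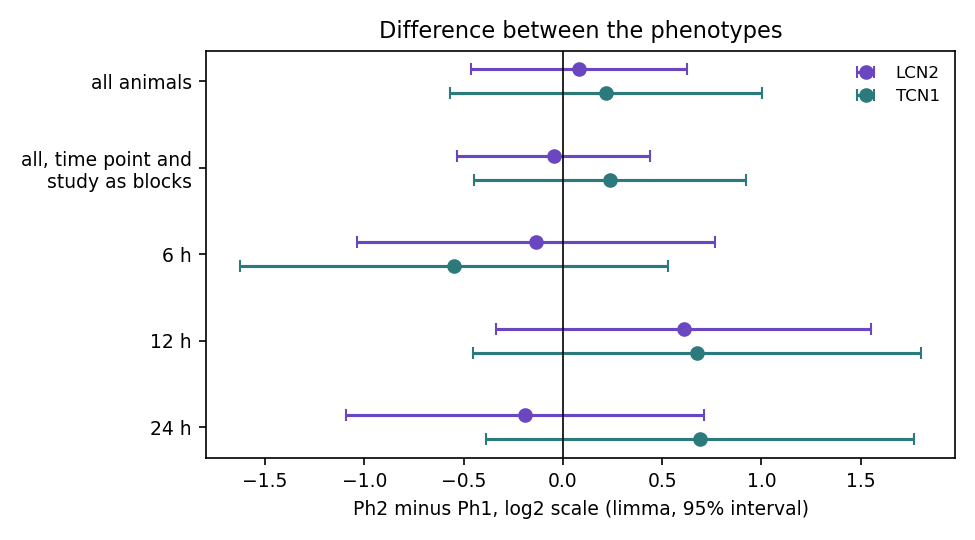
Ph2 minus Ph1 on the log2 scale for LCN2 and TCN1, over all animals, with time point and study as blocks, and at each time point; points are limma estimates and bars their 95% intervals. Every interval spans 0, and the time point with the highest LCN2 estimate is 12 h at 0.61.

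The interaction of phenotype and time point, which asks whether the phenotypes differed by unequal amounts at the 3 time points, was not significant for LCN2 (limma, p 0.384, adjusted p 0.803) or TCN1 (p 0.181, adjusted p 0.660). It passed the adjusted threshold in 0% of the rows and the unadjusted one in 1 of 20.

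In Ph1, TCN1 was lower in every animal at 12 h than in any at 6 h, and values at 24 h overlapped with both. Mean TCN1 in Ph1 was 11.92 ± 0.45 (SD, n = 5) at 6 h. It was 10.08 ± 0.09 (SD, n = 4) at 12 h, and then 10.65 ± 0.82 (SD, n = 5) at 24 h. The 4 animals at 12 h lay between 9.95 and 10.15 and below each of the 5 animals at 6 h, while at 24 h SD14 lay among the values of 6 h and the other 4 animals near those of 12 h. The 3 time points differed (exact permutation test of the Kruskal-Wallis statistic, p 0.00249, adjusted p 0.0196 over the 20 rows), and 15.0% of the rows passed this test. The adjusted p was 0.0559 to 0.0716 without SD1, SD2 or SD7, 0.0645 by a permutation F test of means and 0.0546 and 0.0619 after centring and after scaling to the panel total. Within the 8 Ph1 animals of CELTIC, 4 each at 6 and 12 h, the ranges did not overlap, as in 2 of the 20 rows, and the difference was -1.85, with an adjusted p of 0.286 where 4 against 4 animals cannot go below an exact p of 0.0286 before adjustment.

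From 6 to 12 h, TCN1 in Ph1 differed by -1.84 on the log2 scale, a 3.58-fold lower level. The exact Mann-Whitney p was 0.0159, the smallest that 5 against 4 animals allow, and the adjusted p was 0.317; 0% of the rows passed after adjustment. Ranges did not overlap between these time points in 5% of the rows, and TCN1 was the 1 row. The part of RNA quality in the difference from 6 to 12 h was not tested. From 12 to 24 h, TCN1 differed by 0.57 (exact p 0.111), and between 6 and 24 h by -1.27 (exact p 0.0317, adjusted p 0.212). In Ph2 the successive TCN1 means were 11.37 ± 1.04, 10.76 ± 0.37 and 11.34 ± 1.27 (SD, n = 3 each), and no difference between the time points was detectable (exact Kruskal-Wallis p 0.629). After adjustment 0% of the rows differed between the time points of Ph2, and 1 of 20 had an unadjusted exact p below 0.05.

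LCN2 did not pass any of these tests of time. Its mean in Ph1 was 11.34 ± 0.91 (SD, n = 5) at 6 h, then 11.37 ± 0.21 (SD, n = 4) and finally, after 24 h of observation, 11.93 ± 0.50 (SD, n = 5; exact Kruskal-Wallis p 0.239, adjusted p 0.479). In Ph2 it was 11.20 ± 0.63, 11.97 ± 0.24 and 11.74 ± 0.67 (SD, n = 3 each; exact p 0.439). With both phenotypes in a limma fit, time point gave p 0.172 (adjusted p 0.265) for LCN2 and p 0.00605 (adjusted p 0.0581) for TCN1, where 40.0% of the rows had an unadjusted p below 0.05 and 0% an adjusted one. This adjusted p of TCN1 was below 0.05 without SD6, C2, C4, SD14, SD8 or SD9 (lowest 0.00843), and that of LCN2 was 0.0433 without SD6.

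Set in order, the group means of LCN2 ran from Ph2 at 12 h (11.97) through Ph1 at 24 h (11.93), Ph2 at 24 h (11.74), Ph1 at 12 h (11.37) and Ph1 at 6 h (11.34) to Ph2 at 6 h (11.20). Those of TCN1 ran from Ph1 at 6 h (11.92) through Ph2 at 6 h (11.37), Ph2 at 24 h (11.34), Ph2 at 12 h (10.76) and Ph1 at 24 h (10.65) to Ph1 at 12 h (10.08). No pair of neighbours in either order differed beyond the spread of its animals: all their ranges overlapped.

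LCN2 was higher in STARDUST than in CELTIC in a fit with phenotype, and the difference did not pass after adjustment once time point entered the fit. Its lowest, median and highest log2 normalized counts were 10.64, 11.23 and 12.26 in the 12 CELTIC animals and 11.06, 11.96 and 12.88 in the 11 STARDUST animals. The difference was 0.69 with phenotype in the limma fit (95% interval 0.23 to 1.15, adjusted p 0.0499), 1.61-fold, and 10.0% of the rows passed this test. With study alone in the fit it was also 0.69, and the adjusted p was 0.0806. With time point in the fit as well it was 0.89 (0.14 to 1.64, p 0.0221, adjusted p 0.418), and 0% of the rows passed after adjustment and 1 of 20 before it. That estimate drew on the groups that held both studies. In the additive fit it also drew on the difference between the phenotypes at 12 h, where all Ph1 animals were of CELTIC. The groups that held both studies went opposite ways: SD6 was 1.93 above the mean of the 4 CELTIC animals in Ph1 at 6 h, and SD4 and SD13 were on average 0.42 below G34 in Ph2 at 12 h. LCN2 also went with the total count of the animal (Spearman's rho 0.579 over 23 animals, of which LCN2 itself was 9.0% to 27.4%), and the median total was 16184 in CELTIC and 21902 in STARDUST. The part of depth in the difference between the studies was not tested. Nor was that of RNA integrity, which the supplement gives as mostly lower in CELTIC, or of flock and sample age, which the paper names as differing between the studies. For TCN1 the study difference was 0.17 (95% interval -0.89 to 1.22, adjusted p 0.762), and rho with the total count was 0.084.

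Over all animals no correlation between LCN2 and TCN1 was detectable. For these 23 animals Pearson's r was -0.13 (permutation p 0.549, adjusted p 0.549 over the 6 pairs of LCN2, TCN1, MMP8 and OLFM4) and Spearman's rho was -0.23 (permutation p 0.299). Without the 2 animals farthest from the median of LCN2, C11 and SD6, r was -0.18. Of the 23 animals, 4 were above the median of both genes, 7 above that of LCN2 alone, 7 above that of TCN1 alone and 5 above neither. Pearson's r was -0.10 within Ph1, -0.21 within Ph2, -0.03 within CELTIC and -0.16 within STARDUST, and -0.02 between the deviations of the animals from their group means. By time point it was 0.36 at 6 h, 0.89 at 12 h (exact permutation, adjusted p 0.0167; 7 animals, where the phenotypes formed separate groups for both genes) and -0.48 at 24 h. The sign of r depended on the scaling: it was 0.21 after centring each animal on the median of the markers and -0.56 (permutation, adjusted p 0.00979) after scaling to the panel total, of which both genes are a large part.

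**Figure D3:**
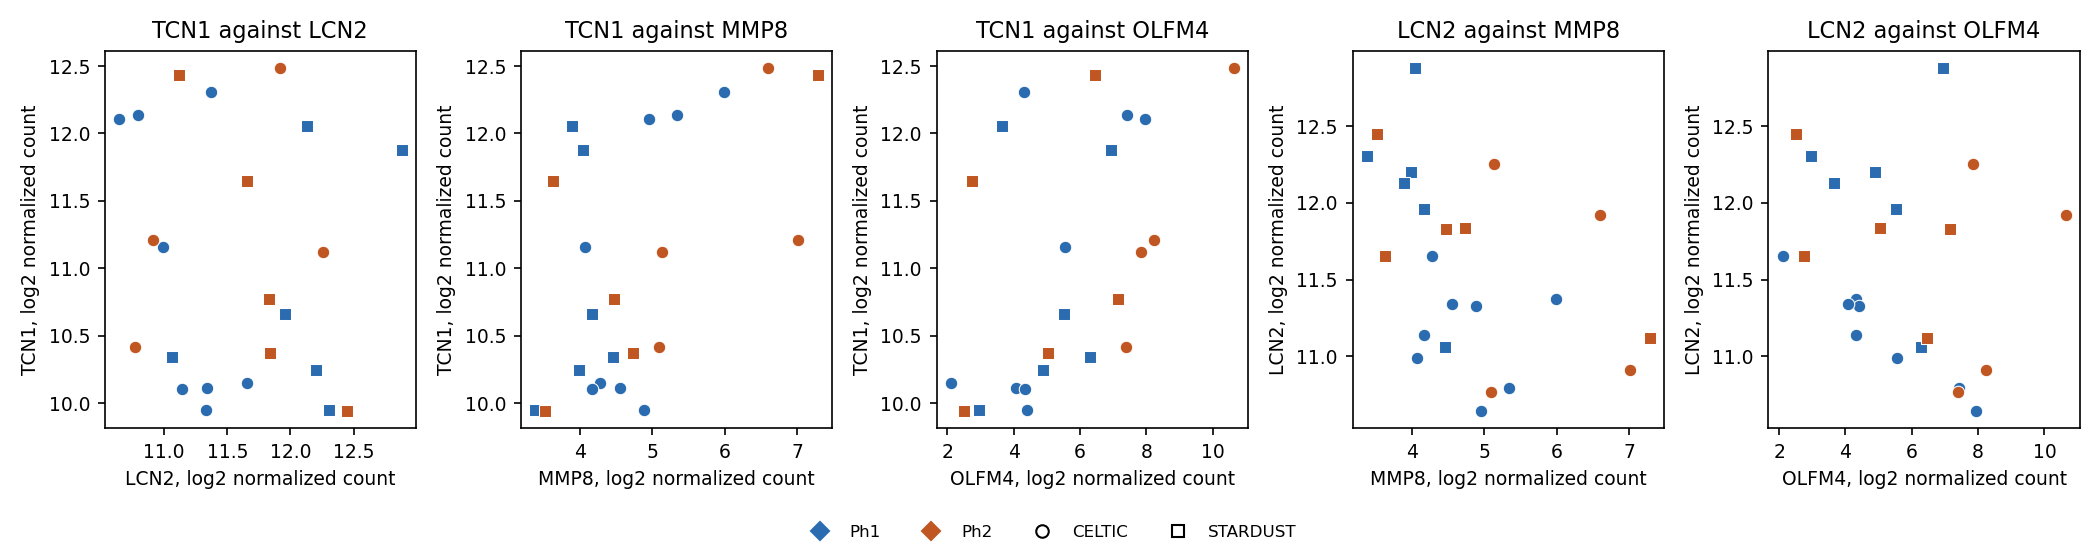
Log2 normalized counts of TCN1 against LCN2, MMP8 and OLFM4, and of LCN2 against MMP8 and OLFM4, 1 point per animal; colour gives the phenotype and marker shape the study. TCN1 went up with MMP8 (r 0.54) and OLFM4 (r 0.50), LCN2 went down with MMP8 (r -0.45), and the plot of TCN1 against LCN2 shows no trend (r -0.13).

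Over all animals TCN1 rose with MMP8 and OLFM4, while LCN2 ran against MMP8. RETN and CD177, which also stand in the list of granule and granulocyte rows below, had Spearman's rho of 0.24 and 0.22 with TCN1. With LCN2 their rho was 0.20 and -0.19. MMP8 ranged from 3.38 in SD10 to 7.28 in SD9 and OLFM4 from 2.11 in C18 to 10.64 in G33. SD9, the highest for MMP8, and G33, the highest for OLFM4, also had the highest values of TCN1 (12.43 and 12.49). Pearson's r of TCN1 was 0.54 with MMP8 (permutation p 0.00729, adjusted p 0.0219; rho 0.51) and 0.50 with OLFM4 (p 0.0165, adjusted p 0.0330; rho 0.55). MMP8 and OLFM4 had r 0.64 with each other (adjusted p 0.00480). Without G33 and SD9, the animals farthest from the median of TCN1, r was 0.33 (adjusted p 0.206) and 0.38 (adjusted p 0.184), so that both calls, though not the sign, rested on these animals. Leaving out G33 alone (r 0.47 for MMP8 and 0.40 for OLFM4) or SD9 alone (0.45 and 0.50) also ended both calls, and the call for OLFM4 was also lost without C1, C18, SD10 or SD8.

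Within studies and groups the sign of these relations was the same, and no adjusted p was below 0.05 except for TCN1 with OLFM4 at 12 h. There r was 0.87 (exact permutation, adjusted p 0.0363) and rho 0.64 (adjusted p 0.25) over 7 animals, where the phenotypes formed separate groups for both genes. TCN1 with MMP8 had r 0.60 in CELTIC and 0.50 in STARDUST, and TCN1 with OLFM4 had r 0.64 and 0.27. Between deviations from the group means r was 0.58 (permutation within groups, p 0.0801, adjusted p 0.243) for MMP8 and 0.43 (p 0.134, adjusted p 0.268) for OLFM4.

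LCN2 ran against MMP8 over all animals (r -0.45, permutation p 0.0317, adjusted p 0.0475; rho -0.54) and had r -0.25 with OLFM4 (adjusted p 0.290; rho -0.37). Within neither study did the relation with MMP8 have an adjusted p below 0.05, and the difference between the studies was not tested. Its r was 0.09 in CELTIC and -0.62 (permutation p 0.0414, adjusted p 0.124) in STARDUST, -0.58 in Ph1, -0.54 in Ph2 and -0.37 between deviations from group means (adjusted p 0.306), and its adjusted p was above 0.05 without any 1 of 16 of the 23 animals. At 24 h, all in STARDUST, SD8 and SD10 combined high LCN2 (12.45 and 12.30) with low MMP8 (3.52 and 3.38), and SD9 combined low LCN2 (11.12) with the highest MMP8 (7.28). MMP8 in SD8 and SD10 was 14 and 12 counts, within the range of the rows left out as below detection.

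Among all other 19 rows, those most like LCN2 by Spearman's rho over the 23 animals were MME (0.61), a membrane metalloendopeptidase, the unnamed row T036 (0.59) and TGFBI (0.35), a secreted matrix protein. At the other end lay HAL (-0.55), the histidine ammonia-lyase, and MMP8 (-0.54). TCN1 was most like OLFM4 (0.55), MMP8 (0.51) and the unnamed row T037 (0.42), and least like MME (-0.46). MME, the row most like LCN2, was therefore the one least like TCN1. These values are a description, since all rows of an animal share its library and its scaling factor. T036 and T037 are housekeeping genes by place and may be among those that set the scaling factor.

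**Figure D4:**
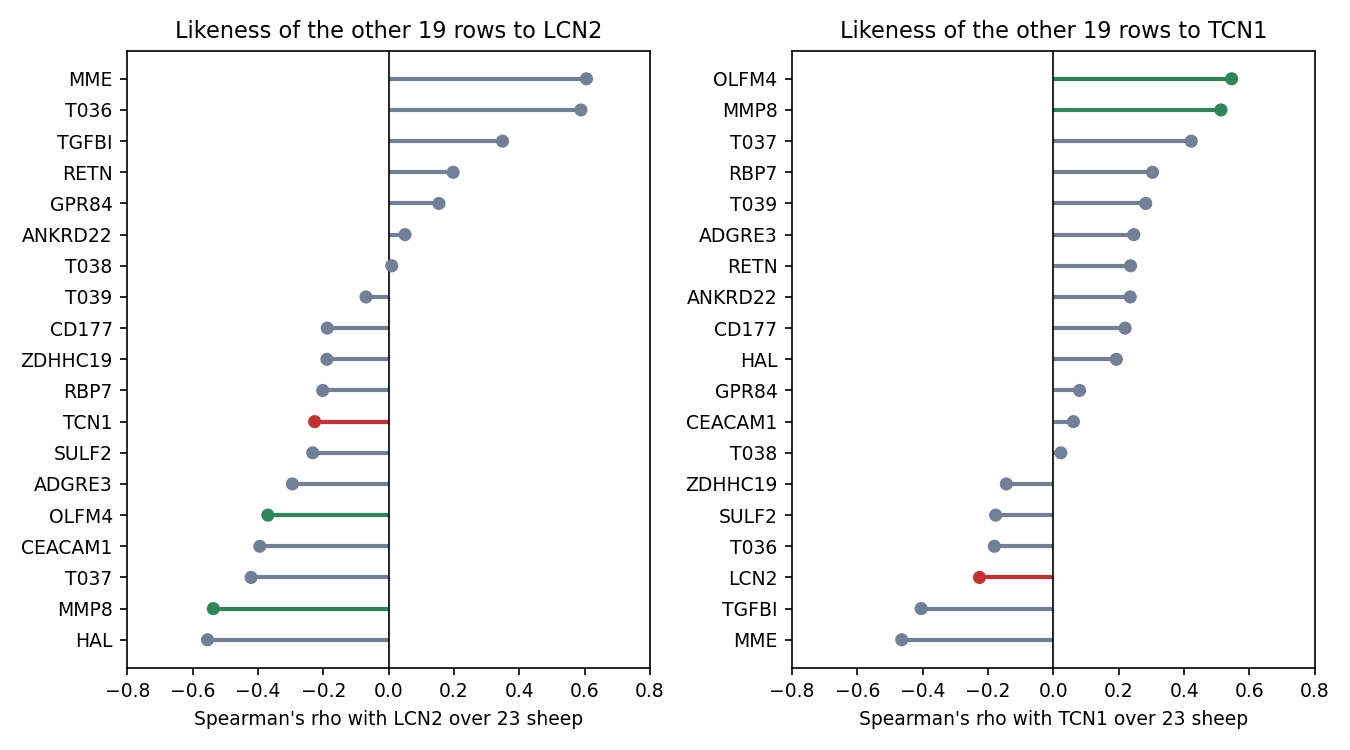
Spearman's rho of LCN2 (left) and TCN1 (right) with each of the other 19 rows over 23 animals; green marks the granule rows MMP8 and OLFM4 and red the respective other gene. OLFM4 and MMP8 stand at the top for TCN1 (0.55 and 0.51) and in the lower part for LCN2 (-0.37 and -0.54).

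The list of 6 granule and granulocyte rows of the panel held LCN2, TCN1, MMP8, OLFM4, RETN, the secreted protein resistin, and CD177, a surface protein of neutrophils. Over all animals 6 of 6 had a higher mean in Ph2 (median difference 0.26, beside 0.07 and 11 of the 20 rows), and 4 of 6 did after centring on the median of the markers, where LCN2 and RETN were lower. The count was 6 of 6 at 12 h under every scaling (median 0.60, beside 0.18 and 11 of the 20 rows). It was 4 of 6 at 6 h (median 0.32, beside -0.12 and 9 of the 20 rows), where LCN2 and TCN1 were the 2 with a lower mean, and 3 of 6 after centring and 5 of 6 after scaling to the panel total. It was 2 of 6 at 24 h (median -0.24, beside -0.000153 and 10 of the 20 rows), MMP8 and TCN1, and 3 of 6 after centring, which moved every row by -0.44 at 6 h and by 0.22 at 24 h. None of the 6 had an exact p below 0.05 in these comparisons.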

How the data were processed

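A custom NanoString nCounter assay was run on pooled right-lung RNA of 23 sheep. The authors deposited log2 normalized counts of 20 rows. According to the methods, quality was assessed in nSolver 4.0, the mean plus 2 SD of the negative controls was subtracted, normalization used 3 housekeeping genes (POLR2A, RPL19 and TBP; geometric mean) in the nCounter Advanced Analysis 2.0 plugin, and log2 was taken. Unlogged, the values of an animal fitted whole numbers scaled by a common factor (tolerance 0.0001, largest deviation 3.55e-10). The smallest such whole numbers were taken as its counts, and totals are in these units. No raw counts or negative controls were analysed here. Subtraction of a value that is not a whole number would break the fit to whole numbers, so whether the deposited values are background-subtracted is not known.

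Animals were grouped by the sample labels. LCN2 and TCN1 are described in full, MMP8 and OLFM4 for the correlations and the 3 rows most like each gene by Spearman's rho. The genes and lists were chosen with earlier results of these data known. In the list of granule rows CD177 is the 16th row, whose identifier is T026 and had been noted as T016. Tests were two-sided: the exact Mann-Whitney U test, an exact permutation test of the Kruskal-Wallis statistic, limma (lmFit and eBayes) and permutation tests of correlations (100000 resamples, exact below 10 animals), with Benjamini-Hochberg adjustment over 20 rows, over the rows and 3 time points, or over 6 pairs. Scripts were tested on simulated data. Alternatives were other tests, the linear scale, centring on the median of the 14 markers, scaling to the panel total, fits with study or time point as a block, CELTIC or STARDUST alone, and leaving out each animal. Python 3.11.15, numpy 2.4.6, scipy 1.17.1, pandas 2.3.3, R 4.3.3 and limma 3.58.1 were used.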

Additional observations from a re-analysis of the deposited data

Results flagged for a closer look

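LCN2 in SD1, a Ph1 animal observed for 24 h, had a log2 normalized count of 11.06, while the other 4 animals of its group lay between 11.96 and 12.30. Its gap to the nearest animal was 0.723 of the range of the group (n = 5), beyond Dixon's 95% critical value. This was 1 of 8 combinations of gene and group with enough animals to be tested, and chance marks about 1 in 20. TCN1 in the same animal was 10.34 and lay within its group.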

How the results depend on the processing

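Of 620 alternative values, 506 kept direction and side of the threshold, 72 lost significance, 12 gained it and 30 changed direction. No paired analysis was possible because the labels give the groups no shared replicate numbers. Groups of 3 to 5 animals and the confounding of study with time point limit these results, LCN2 went with the total count, and the causes of the changes below were not tested.

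The phenotype difference of LCN2 changed sign after centring on the marker median (-0.00327), with study as a block (-0.00665), with time point and study as blocks (-0.0464) and within STARDUST (-0.31), and that of TCN1 without the 24 h animals (-0.0374). LCN2 at 6 h was 0.00890 after scaling to the panel total and LCN2 at 24 h 0.0250 after centring. The ratio of unlogged means of LCN2, 12 h over 6 h in Ph1, was 0.853, where the log2 difference was 0.03. Leaving out 1 animal gave -0.0203 to 0.19 for LCN2 and 0.05 to 0.37 for TCN1 over all animals. For LCN2 it gave -0.50 to 0.25 at 6 h, 0.47 to 0.70 at 12 h, -0.54 to 0.12 at 24 h and -0.14 to 0.42 for 12 h minus 6 h in Ph1 (below 0 without C18, C1, C2 or C11). For TCN1 it gave -1.10 to -0.07 at 6 h, 0.49 to 0.87 at 12 h, 0.14 to 1.39 at 24 h and -2.03 to -1.74 for 12 h minus 6 h in Ph1.

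The adjusted p for time within Ph1 of TCN1 was 0.0645 by the permutation F test, 0.0546 after centring, 0.0619 after scaling to the panel total, 0.286 in CELTIC alone (12 h minus 6 h -1.85, no overlap, 4 against 4 animals) and 0.00932 to 0.0716 with 1 animal left out. For time with both phenotypes (limma) it was 0.00876 without the 24 h animals, 0.0264 after scaling to the panel total and 0.00843 to 0.0946 with 1 animal left out for TCN1, and 0.0455 after centring and 0.0433 to 0.448 with 1 animal left out for LCN2. The study difference of LCN2 was 0.69 with phenotype (adjusted p 0.0499) and with study alone (adjusted p 0.0806) and 0.15 to 1.09 with 1 animal left out. That of TCN1 was -0.17 with study alone, -0.20 with phenotype and -0.00841 to 0.32 with 1 animal left out (below 0 without C4).

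Pearson's r of LCN2 and TCN1 was 0.36 at 6 h, 0.0661 without the 24 h animals, 0.21 after centring and -0.56 (adjusted p 0.00979) after scaling to the panel total, and rho of deviations from group means was 0.0504. At 12 h it was 0.89 (7 animals, exact permutation, adjusted p 0.0167), where the phenotypes formed separate groups for both genes. With 1 animal left out it lay between -0.26 and -0.05. LCN2 with OLFM4 had r 0.10 at 6 h, 0.65 at 12 h and 0.0487 without the 24 h animals (-0.37 to -0.18 with 1 animal left out). LCN2 with MMP8 was above 0 in CELTIC (0.0884) and at 12 h (0.60). It missed the threshold in Ph1 (-0.58), Ph2 (-0.54), STARDUST (-0.62), at 6 h (-0.19), at 24 h (-0.70), without the 24 h animals (-0.21), after centring (-0.40), for deviations from group means (-0.37, rho -0.30) and without C11 and SD6 (-0.45), and ran from -0.53 to -0.39 with 1 animal left out.

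TCN1 with MMP8 missed the threshold in Ph1 (0.48), Ph2 (0.66), CELTIC (0.60), STARDUST (0.50), at 6 h (0.22), 12 h (0.50) and 24 h (0.61), without the 24 h animals (0.49), for deviations from group means (0.58, rho 0.45) and without G33 and SD9 (0.33), and ran from 0.45 to 0.61 with 1 animal left out. TCN1 with OLFM4 missed it in Ph1 (0.54), Ph2 (0.46), CELTIC (0.64), STARDUST (0.27), at 6 h (0.16) and 24 h (0.23), without the 24 h animals (0.63), after centring (0.44), for deviations from group means (0.43, rho 0.37) and without G33 and SD9 (0.38), and ran from 0.40 to 0.57 with 1 animal left out.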
